A study of Mus musculus with 5 samples.

Results

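De novo lipogenesis was read in CRC tumours through 10 genes, chosen by name. These are enzymes on or beside the route from citrate to long-chain fatty acids, and the transcription factors that drive them. The genes are Acly, Acaca, Acacb, Fasn, Elovl6, Scd1, Scd2, Fads2, Srebf1 and Mlxipl, and each matched 1 of the 54113 named entries of the deposited count table. None of the 9 that were tested passed the main test between the temperatures, which called 0 of the 16133 genes tested. The levels of the lipogenesis genes varied from library to library within each temperature.

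The tumours were grown in C57BL/6 mice from MC38, a mouse colon carcinoma line, so that every tumour came from the same line. The mice were kept at 30 °C, which is close to thermoneutrality for a mouse, or at 4 °C, in both cases for 2 weeks. Total RNA of the excised tumours was sequenced, with 3 libraries at 30 °C and 2 at 4 °C. No gene was altered and no drug is given in the labels, which state neither age nor sex nor whether a library came from a single mouse. The p-values below therefore measure only the spread between these libraries.

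In cells that make fat, citrate leaves the mitochondria and is split in the cytosol into acetyl-CoA, which acetyl-CoA carboxylase turns into malonyl-CoA. Fatty acid synthase joins these units into palmitate, and elongases and desaturases lengthen it and add double bonds. The pathway is most active in liver and fat, is switched on by insulin and glucose through the products of Srebf1 and Mlxipl, and is often active in tumour cells, which use the fatty acids for membranes.

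Counts on named genes ranged from 16191708 to 20320525 per library, and 16133 genes passed the filter on low counts. Of the 10 lipogenesis genes, 9 passed and Mlxipl did not. Levels are given as CPM, the share of a library's counts scaled to a common total, after TMM (TMM-scaled CPM), a scaling that corrects for a few very abundant genes. Such genes were present. In 30 °C replicate 2, 25 genes of pancreatic acinar cells, led by Ctrb1, took 28.8% of the counts (95% Wilson interval 28.8% to 28.9%), against 0.277% in 4 °C replicate 2 (0.274% to 0.279%) and less than that in the other libraries. Such intervals cover counting error only. The labelled tissue was tumour, yet a list of 10 epithelial genes, led by Krt8, summed to 17.8 to 181 TMM-scaled CPM, with Krt19, Cldn3, Cldn4 and Cdx2 at 0 in at least 1 library. A list of 11 B cell genes, led by Ighm, summed to 5670, 6703 and 10065 TMM-scaled CPM at 30 °C and 11750 and 10871 at 4 °C, groups that did not overlap. Those of 6 splenic stroma genes, led by Cxcl13, were also apart, at 126, 111 and 137 against 217 and 217. Of all single genes tested, 12.2% were apart with 4 °C above, and the sums themselves were not tested. Erythroblast genes (10, led by Slc4a1) summed to 3183 to 6251 at 30 °C and 3172 to 3307 at 4 °C, and macrophage genes (10, led by Vcam1) to 2042 to 3651 and 2281 to 3003. The libraries most alike over all genes tested were 30 °C replicate 3 and 4 °C replicate 1, with a mean absolute log2 difference of 0.28, against 0.46 to 0.62 for the other 9 pairs. These libraries carry different temperature labels, and results that rest on them are given below with and without them.

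Acly encodes ATP citrate lyase, which makes the acetyl-CoA on which the pathway runs, and lies on chromosome 11 at 100476353 to 100528000 of the mouse genome (GRCm38), on the minus strand. Its level was 182, 186 and 242 TMM-scaled CPM in replicates 1 to 3 at 30 °C and 249.5 and 184 in the replicates at 4 °C. The high values were those of 30 °C replicate 3 and 4 °C replicate 1, and the groups overlapped. The mean at 30 °C was 204 ± 33.8 (SD, n = 3), and the mean at 4 °C was 217 ± 46.0 (SD, n = 2). The log2 fold change of 4 °C against 30 °C was 0.09 (SE 0.22, 95% confidence interval -0.43 to 0.62, edgeR adjusted p = 0.95). Without 4 °C replicate 1 it was -0.14.

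The carboxylases make malonyl-CoA, Acaca in the cytosol for fatty acid synthesis and Acacb at the mitochondrial surface, where malonyl-CoA restrains the entry of fatty acids into oxidation. Acaca (chromosome 11, 84129672 to 84401651, plus strand) was at 30.0, 37.4 and 49.3 TMM-scaled CPM at 30 °C and at 36.3 and 24.4 at 4 °C. The lowest library was 4 °C replicate 2 and the highest was 30 °C replicate 3, while the other 3 lay between them. Its log2 fold change was -0.36 (SE 0.29, interval -1.05 to 0.33, edgeR adjusted p = 0.85).

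Acacb (chromosome 5, 114146535 to 114250761, plus strand) was at 4.47, 24.8 and 9.87 TMM-scaled CPM at 30 °C and at 10.2 and 4.73 at 4 °C. A single library stood above the others, 30 °C replicate 2, which is the library rich in acinar transcripts. The highest level was 5.55 times the lowest, the widest range among the 9 genes tested. The log2 fold change was -0.79 (SE 0.74, interval -2.59 to 1.02, edgeR adjusted p = 0.87), and it was 0.056 without 30 °C replicate 2. The part that the acinar content of that library played in the Acacb level was not tested. As these are bulk samples, fewer cells of a type and less RNA per cell cannot be told apart, here and for every gene below.

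Fasn encodes fatty acid synthase, the multi-domain enzyme that builds palmitate. It lies on chromosome 11 at 120805846 to 120824547, on the minus strand. Its counts ranged from 1143 to 2804 per library, and its level was 81.8, 93.9 and 122 TMM-scaled CPM at 30 °C and 113 and 83.8 at 4 °C. The highest values again belonged to 30 °C replicate 3 and 4 °C replicate 1. The mean at 30 °C was 99.4 ± 20.9 (SD, n = 3), against a mean at 4 °C of 98.4 ± 20.7 (SD, n = 2). The log2 fold change was -0.01 (SE 0.24, interval -0.60 to 0.57, edgeR adjusted p = 0.99), so that changes larger than the interval's bounds lie outside what these libraries allow at that confidence. Its sign turned under other scalings, and the value was 0.17 both without 30 °C replicate 3 and without 4 °C replicate 2.

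**Figure D1:**
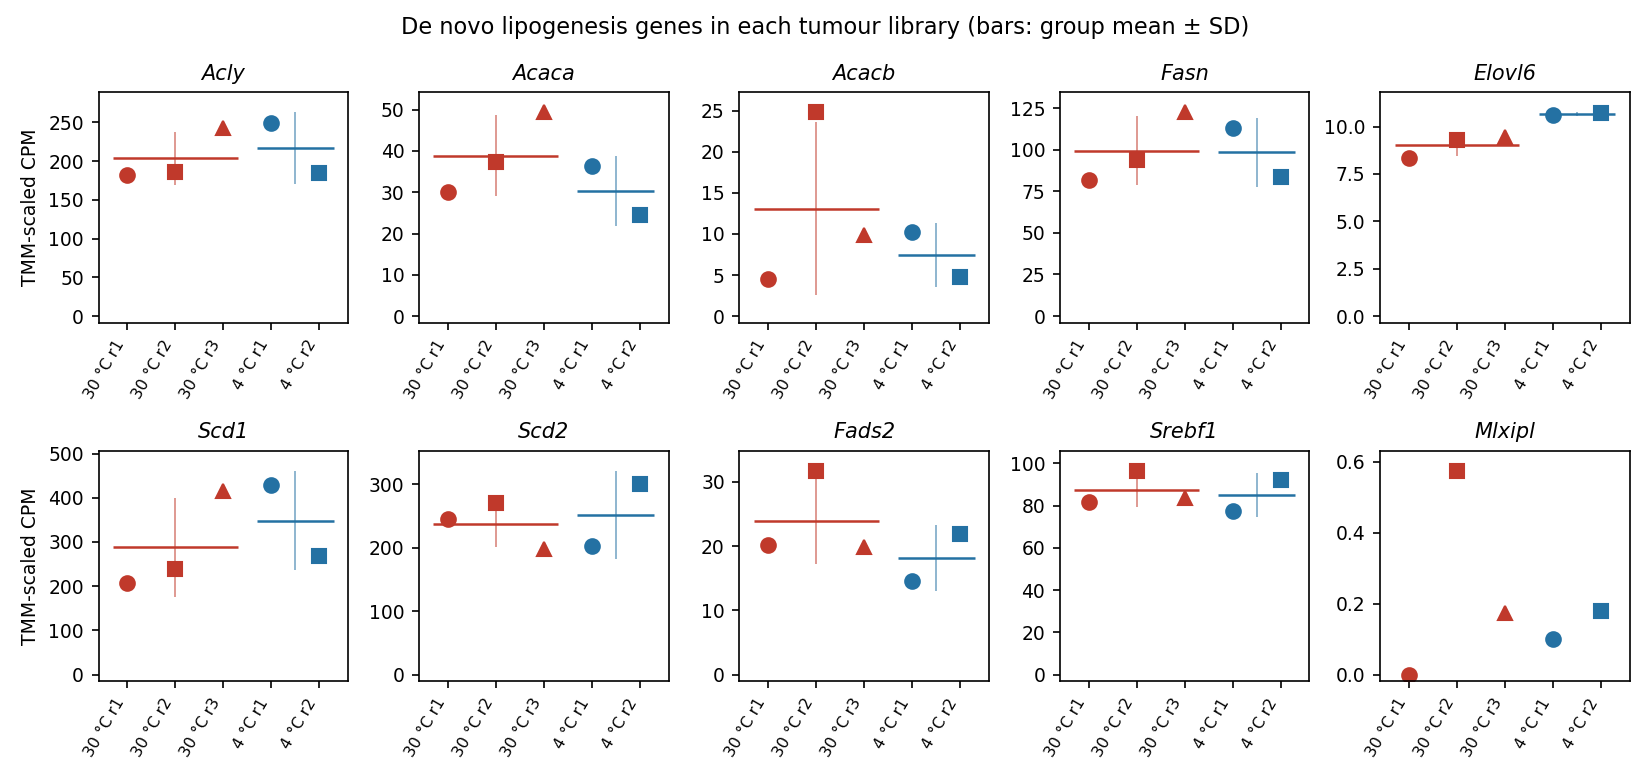
Level of each lipogenesis gene (vertical axes, TMM-scaled CPM, each from 0) in the 3 libraries at 30 °C (red) and the 2 at 4 °C (blue). Horizontal bars are group means and vertical bars their SD, except for Mlxipl, whose 5 libraries hold 0 to 7 counts. Only Elovl6 has both 4 °C libraries above all 3 at 30 °C, and Acly, Fasn and Scd1 are highest in 30 °C replicate 3 and 4 °C replicate 1.

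Elovl6 encodes the elongase that lengthens palmitate to stearate, and lies on chromosome 3 at 129532355 to 129638495, on the plus strand. Its level was 8.36, 9.28 and 9.43 TMM-scaled CPM at 30 °C and 10.6 and 10.7 at 4 °C, from 113 to 216 counts per library. Both libraries at 4 °C were above all 3 at 30 °C, and this was the only member of the 9 tested whose groups did not overlap. Groups were apart in 23.3% of all genes tested, and in 12.2% with 4 °C above, so 1 of 9 is no more than the background. The log2 fold change was 0.24 (SE 0.22, interval -0.28 to 0.76, edgeR adjusted p = 0.86).

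Scd1 and Scd2 encode stearoyl-CoA desaturases, which place the double bond of oleate and palmitoleate. They are neighbours on chromosome 19, Scd1 at 44394455 to 44407879 on the minus strand and Scd2 at 44293674 to 44306864 on the plus strand. Scd1 was at 207, 239.5 and 416 TMM-scaled CPM at 30 °C and at 428 and 269 at 4 °C. As for Fasn and Acly, 30 °C replicate 3 and 4 °C replicate 1 held the high values, and each temperature had libraries on both sides. The log2 fold change of Scd1 was 0.28 (SE 0.36, interval -0.58 to 1.13, edgeR adjusted p = 0.90). It was 0.64 without 30 °C replicate 3 and -0.10 without 4 °C replicate 1. Without the first of these, the edgeR p before adjustment was 0.051, the smallest that any member reached under the alternatives run.

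Scd2 went the other way across the libraries. It was at 245, 269.98 and 197 TMM-scaled CPM at 30 °C and at 202 and 301 at 4 °C, so that the libraries highest in Scd1 were the lowest in Scd2. Its log2 fold change was 0.08 (SE 0.24, interval -0.48 to 0.65, edgeR adjusted p = 0.96), and it was -0.035 without 30 °C replicate 3 and -0.25 without 4 °C replicate 2. The genes share little sequence that could move reads between them. Of the 4841 stretches of 50 bases in the Scd1 transcripts, 145 (3.00%) also occur in Scd2.

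Because both genes are counted in the same library, their ratio does not depend on the scaling. There were 0.845, 0.887 and 2.11 Scd1 counts for each Scd2 count at 30 °C, and 2.11 and 0.894 at 4 °C. The ratio thus took a high value in 30 °C replicate 3 and 4 °C replicate 1 and a low value in the other 3 libraries. The mean log2 ratio at 30 °C was 0.22 ± 0.74 (SD, n = 3), against 0.46 ± 0.88 (SD, n = 2) in the cold, a difference of 0.24 (two-sided exact permutation test, p = 0.4, where 10 splits allow no p below 0.2). The equivalent ratio of Acaca to Acacb was 6.70, 1.51 and 5 at 30 °C and 3.54 and 5.15 at 4 °C. It was low in 30 °C replicate 2, and its mean log2 ratio differed by 0.21 between the temperatures (two-sided exact permutation test, p = 1). Without 30 °C replicate 2, this difference was -0.44.

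Fads2 encodes the delta-6 desaturase, which acts on polyunsaturated fatty acids from the diet and shares its regulators with the lipogenic enzymes. It lies on chromosome 19 at 10062765 to 10101746, on the minus strand. Its level was 20.2, 31.7 and 19.9 TMM-scaled CPM at 30 °C and 14.6 and 21.8 at 4 °C. As with Acacb, 30 °C replicate 2 was highest, and the lowest library was 4 °C replicate 1. For Fads2 the log2 fold change was -0.39 (SE 0.30, interval -1.13 to 0.34, edgeR adjusted p = 0.85), which was the smallest p of the members.

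Srebf1 encodes SREBP-1, the transcription factor that insulin activates to switch on most of these enzymes. It lies on chromosome 11 at 60199089 to 60222581, on the minus strand, and its end overlaps Rai1 on the other strand. Its level was 81.8, 96.4 and 83.6 TMM-scaled CPM at 30 °C and 77.6 and 92.3 at 4 °C. These are the most even values in the set, with the narrowest interval, and the groups overlapped. For Srebf1 the log2 fold change was -0.04 (SE 0.18, interval -0.47 to 0.39, edgeR adjusted p = 0.97), a sign that turned with other scalings and without 30 °C replicate 2 (0.028) or 4 °C replicate 1 (0.082). The messenger level does not report cleavage of the SREBP-1 protein, the step at which it is mainly activated.

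Mlxipl encodes ChREBP, the factor that glucose activates, and lies on chromosome 5 at 135089890 to 135138382 on the plus strand. It had 0, 7 and 4 counts at 30 °C and 2 and 3 counts at 4 °C. Of the 5 libraries, 3 were at or below 3 counts, the floor used here, which equals 0.148 to 0.185 CPM. No fold change was computed, and a difference was not detectable at this depth.

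**Figure D2:**
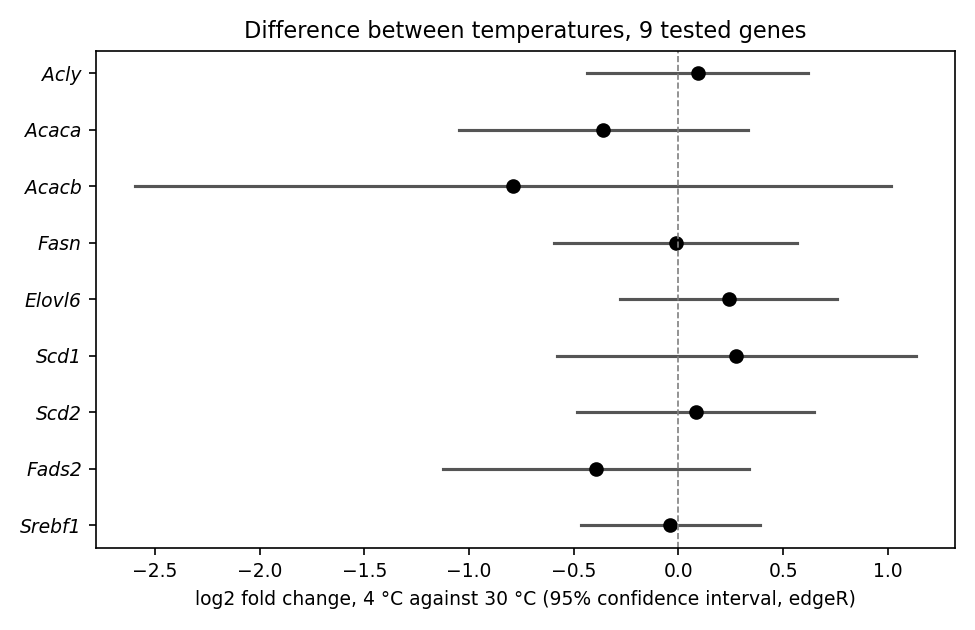
Log2 fold change of 4 °C against 30 °C from edgeR (horizontal axis) for the 9 genes tested, with its 95% confidence interval. All intervals include 0, from the narrowest for Srebf1 (-0.47 to 0.39) to the widest for Acacb (-2.59 to 1.02).

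Across the pathway, 0 of the 9 genes tested passed an adjusted p of 0.05 with edgeR, where 0% of all genes passed. At an unadjusted p under 0.05 there were also 0 of 9, against 6.76% of all genes tested (1090 genes, 4.17% lower and 2.58% higher at 4 °C). DESeq2, run as an alternative, called 113 of 12719 genes (0.888%) and 0 of the members. By the sign of the fitted change, 5 members were lower and 4 higher at 4 °C, and upper-quartile scaling and plain library sizes gave 3 lower and 6 higher. The median log2 fold change of the 9 was -0.01, beside 0.01 over all genes tested, and with plain library sizes these medians were 0.084 and 0.11. A p that misses the threshold does not show equal levels, and the intervals above give the changes that remain possible.

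Levels were compared between genes only per kilobase of exon sequence, as TMM-scaled CPM per kb averaged over the 5 libraries. By this mean Scd1 was at 63.8 (range 42.4 to 87.5), Scd2 at 44.5 (36.1 to 55.0) and Acly at 39.6 (34.5 to 47.3). The place of Scd1 above Scd2 rests on 30 °C replicate 3 and 4 °C replicate 1, where Scd1 was at 85.0 and 87.5 and Scd2 at 36.1 and 37.0, and in the other 3 libraries Scd2 was level with Scd1 or slightly above it. Srebf1 was at 15.3 (13.8 to 17.1), Fasn at 9.04 (7.47 to 11.2) and Fads2 at 6.57 (4.42 to 9.62). Acaca was at 2.08 (1.43 to 2.89), Elovl6 at 1.5 (1.30 to 1.67), Acacb at 1.12 (0.464 to 2.58) and Mlxipl at 0.0372 (0 to 0.104). Among neighbours in this order, the ranges overlapped for Scd1 with Scd2, Scd2 with Acly, Fasn with Fads2, Acaca with Elovl6 and Elovl6 with Acacb. They did not overlap for Acly with Srebf1, Srebf1 with Fasn, Fads2 with Acaca or Acacb with Mlxipl. The length used was that of all annotated exons of a gene together, which can exceed that of its transcripts. For Acaca it was 17074 bases, while its protein-coding transcripts held 10211 distinct stretches of 50 bases. A shorter length raises the level per kb, and whether the order and these gaps hold with other lengths was not tested.

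The levels were more alike in certain libraries than at either temperature. Over the 9 genes, the mean absolute log2 difference was 0.16 between 30 °C replicate 3 and 4 °C replicate 1, and 0.19 between 30 °C replicate 1 and 4 °C replicate 2. For the other 8 pairs of libraries it lay between 0.48 and 0.54. Both close pairs join libraries of different temperatures. Fasn, Acly and Scd1 (3 of 9) were higher in 30 °C replicate 3 and 4 °C replicate 1 than in the other 3 libraries, a pattern found in 20.2% of all genes. Scd2 and Fads2 (2 of 9) were lower there, a pattern found in 16.3% of all genes. The sums of the acinar, epithelial and neutrophil lists were also lowest in these libraries. For the 10 neutrophil genes, led by S100a9, they were 12486, 8465 and 2937 TMM-scaled CPM at 30 °C and 2479 and 3992 at 4 °C. The part of these cell types in the levels of Fasn, Acly, Scd1, Scd2 and Fads2 was not tested. Without both libraries, the log2 fold change was -0.067 for Fasn, 0.0033 for Acly, 0.27 for Scd1, 0.22 for Scd2 and -0.25 for Fads2, and 4 of the 9 members were lower and 5 higher.

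Fat cells and glands could also carry these transcripts. Of 12 adipocyte genes, led by Lipe, 4 were over the floor in every library, and the list summed to 48.1 to 72.2 TMM-scaled CPM at 30 °C and 53.9 to 55.7 at 4 °C. Lep had 0 counts in every library, and Plin1 (0 to 3 counts), Cidea (0 to 3), Ucp1 (0 to 2) and Cidec (0 to 8) were at or near 0. Adipoq, the adipokine adiponectin, had 0, 14 and 0 counts at 30 °C and 17 and 2 at 4 °C, and Cfd, the adipokine adipsin, had 0, 150 and 0 counts at 30 °C and 128 and 53 at 4 °C. Fabp4 and Car3, named after their values were seen, had 182 and 97 counts in 30 °C replicate 2, their highest library, as it was for Acacb and Fads2. Cfd was highest there too, as was Adipoq after TMM scaling, and the list sum was highest there, at 72.2 TMM-scaled CPM. The part of fat cells in the levels of the lipogenesis genes was not tested. The 6 genes of sebaceous glands, led by Soat1, summed to 50.3 to 72.9 TMM-scaled CPM at 30 °C and 50.2 to 52.9 at 4 °C, with Awat1, Mc5r and Fa2h at 0 in at least 1 library. The 8 hepatocyte genes, led by Alb, summed to 7.13 to 40.6 at 30 °C and 6.76 to 13.6 at 4 °C. The sums of 10 cycling genes, led by Mki67, did not overlap, with 1933, 2424 and 1751 TMM-scaled CPM at 30 °C and 1131 and 1218 at 4 °C. Of all single genes tested, 11% were apart with 4 °C below.

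The counts of Fasn and Acly kept the most constant ratio of the 36 pairs that the 9 genes form. There were 0.448, 0.506 and 0.505 Fasn counts for each Acly count at 30 °C, and 0.453 and 0.455 at 4 °C. The SD of the log2 ratio over the 5 libraries was 0.088. Against Fasn, 158 of the other 16132 genes had a smaller SD than Acly (rank 159), and the median over all was 0.42. The pair was singled out after its values were seen, and the rank is a description without a test. The next most constant ratio was that of Scd2 to Srebf1, at 3.00, 2.80 and 2.36 at 30 °C and 2.61 and 3.26 at 4 °C, with an SD of 0.18. Pairs that held Acacb were the least constant, up to an SD of 1.08 with Scd2.

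**Figure D3:**
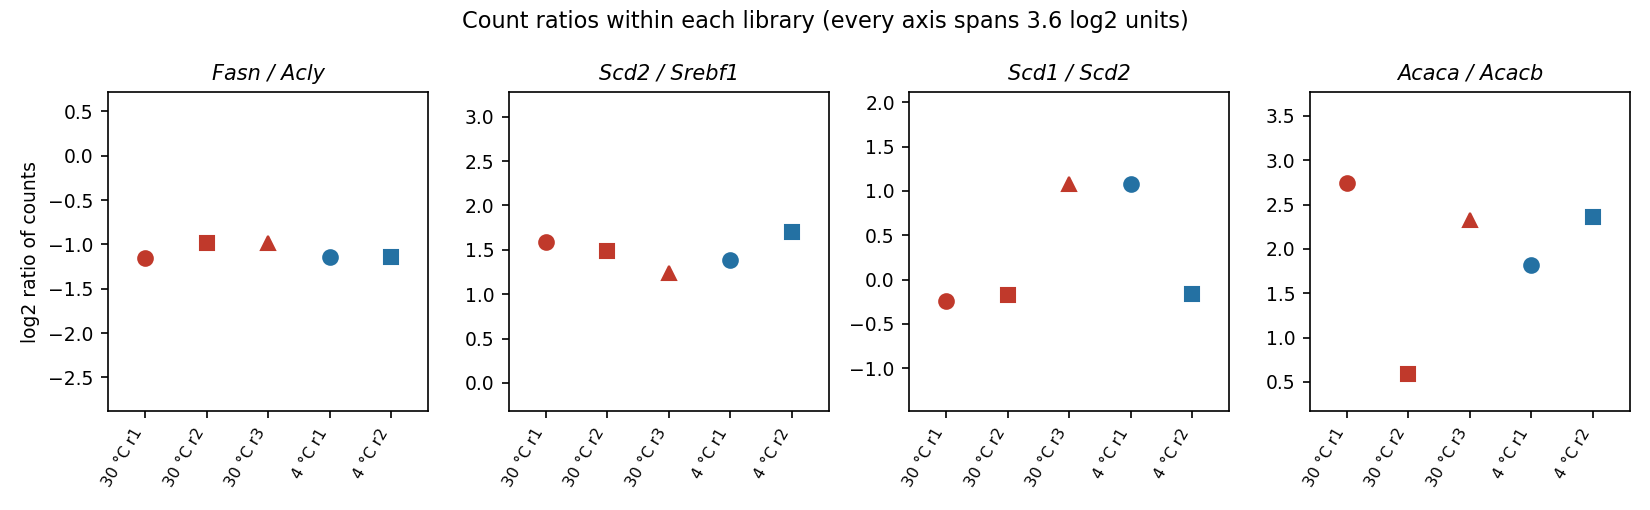
Log2 ratio of the counts of 2 genes within each library (vertical axes, each spanning the same number of log2 units), for 30 °C in red and 4 °C in blue. The ratio of Fasn to Acly hardly varies (SD 0.088), that of Scd1 to Scd2 is high in 30 °C replicate 3 and 4 °C replicate 1, and that of Acaca to Acacb is low in 30 °C replicate 2.

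The sequences before the transcription starts of Fasn and Acly are shown because, among the members, these genes moved most closely together across the libraries. They are 250 bases each from RefSeq on GRCm38.p6, written 5′ to 3′ on the minus strand, at chr11:120824548-120824797 for Fasn and chr11:100528001-100528250 for Acly. Capitals mark the matches, on either strand, to CCAAT in Fasn and to GGGCGG in Acly.
Fasn: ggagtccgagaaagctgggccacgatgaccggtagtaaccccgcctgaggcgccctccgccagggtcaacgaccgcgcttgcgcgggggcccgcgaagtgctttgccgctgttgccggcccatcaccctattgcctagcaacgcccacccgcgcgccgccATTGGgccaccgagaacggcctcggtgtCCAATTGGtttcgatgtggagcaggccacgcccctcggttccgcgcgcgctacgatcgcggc
Acly: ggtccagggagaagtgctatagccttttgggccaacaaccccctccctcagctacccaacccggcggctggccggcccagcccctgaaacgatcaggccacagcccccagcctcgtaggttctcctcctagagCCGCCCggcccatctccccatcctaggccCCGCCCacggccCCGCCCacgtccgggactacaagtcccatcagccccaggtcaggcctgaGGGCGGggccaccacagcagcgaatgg

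Fasn held 3 matches to CCAAT, of which 2 overlap on opposite strands, and 0 to GGGCGG, and Acly held 4 matches to GGGCGG and 0 to CCAAT. Over all 32851 promoter windows of the same length, 33.8% held CCAAT (the letters that the factor NF-Y binds) and 32.7% held GGGCGG (the letters that Sp1 binds), and over the 14565 windows of genes that passed the filter the shares were 34.9% and 54.3%. The E-box, which USF proteins bind, was searched as CACGTG and was present in 6.02% of windows (8.01% for genes that passed the filter), and a consensus of 10 letters of the sterol regulatory element, which SREBP binds, in 0.192% (0.151%). RefSeq gave 11 windows for 8 of the 10 members, and none for Scd1 and Scd2. Of the 11 windows, 0 held the sterol regulatory element in this form and 1, of Mlxipl, held CACGTG. A missing match says only that those letters are not in that window.

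The genes around the pathway were read from lists by function. Of 10 genes that supply acetyl-CoA and NADPH, 5 were lower and 5 higher at 4 °C, the median log2 fold change was -0.03 and 0 passed the test. With plain library sizes 6 of these were higher, as were 11 of the 16 elongation and desaturation partners and 14 of the 20 regulators described next, while the median over all genes rose by the shift given above. The split of the supply genes also rested on single libraries, with 0 of 10 higher (median -0.25) without 4 °C replicate 2 and 6 of 10 higher (median 0.12) without 30 °C replicate 1. The smallest p was that of G6pdx, glucose-6-phosphate dehydrogenase, which makes NADPH, at 254, 116 and 91.9 TMM-scaled CPM at 30 °C and 77.8 and 96.5 at 4 °C. Here 30 °C replicate 1 was far above the others and the groups overlapped (log2 fold change -0.82, SE 0.45, edgeR adjusted p = 0.79). Pgd, the next dehydrogenase of the pentose phosphate pathway, was likewise highest in 30 °C replicate 1 (log2 fold change -0.41), and Acss2, which makes acetyl-CoA from acetate, had a log2 fold change of -0.25.

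Of 16 tested elongases, desaturases and their partners, 8 were lower and 8 higher, with a median log2 fold change of 0.04 and 0 past the test. Without 4 °C replicate 1, 13 were higher (median 0.25), and without 4 °C replicate 2, 4 were higher (median -0.30). Hacd4, a dehydratase of the elongation cycle, had the smallest p, at 21.2, 27.4 and 22.1 TMM-scaled CPM at 30 °C and 14.0 and 17.2 at 4 °C. Its groups did not overlap, with 4 °C below, as in 11% of all genes (log2 fold change -0.60, SE 0.22, edgeR adjusted p = 0.71). Elovl5, which elongates polyunsaturated fatty acids, had a log2 fold change of 0.22, and Elovl2, which acts on longer ones, of 0.60 at under 1 TMM-scaled CPM in every library.

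Of 20 regulators of lipogenic transcription and of acetyl-CoA carboxylase, 10 were lower and 10 higher, with a median log2 fold change of -0.01 and 0 past the test. Prkaa2, a catalytic subunit of AMP-activated kinase, which inhibits acetyl-CoA carboxylase, was at 5.42 TMM-scaled CPM in 30 °C replicate 2 and between 0.348 and 0.699 in the other libraries (log2 fold change -2.56, edgeR adjusted p = 0.76). Trib3, a pseudokinase of the stress response, was at 60.3, 8.38 and 1.44 at 30 °C and 0.696 and 3.41 at 4 °C (log2 fold change -3.52, edgeR adjusted p = 0.80). For both genes 1 library at 30 °C lay far above the others, and the fold changes without it are not given here. The groups of Prkaa2 did not overlap, with 4 °C below, as in 11% of all genes, and those of Trib3 overlapped. Usf1, a factor that binds the E-box, was at 69.7 to 76.0 TMM-scaled CPM at 30 °C and at 84.9 and 88.1 at 4 °C (log2 fold change 0.24, edgeR adjusted p = 0.82). Its groups did not overlap, with 4 °C above, as in 12.2% of all genes.

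**Figure D4:**
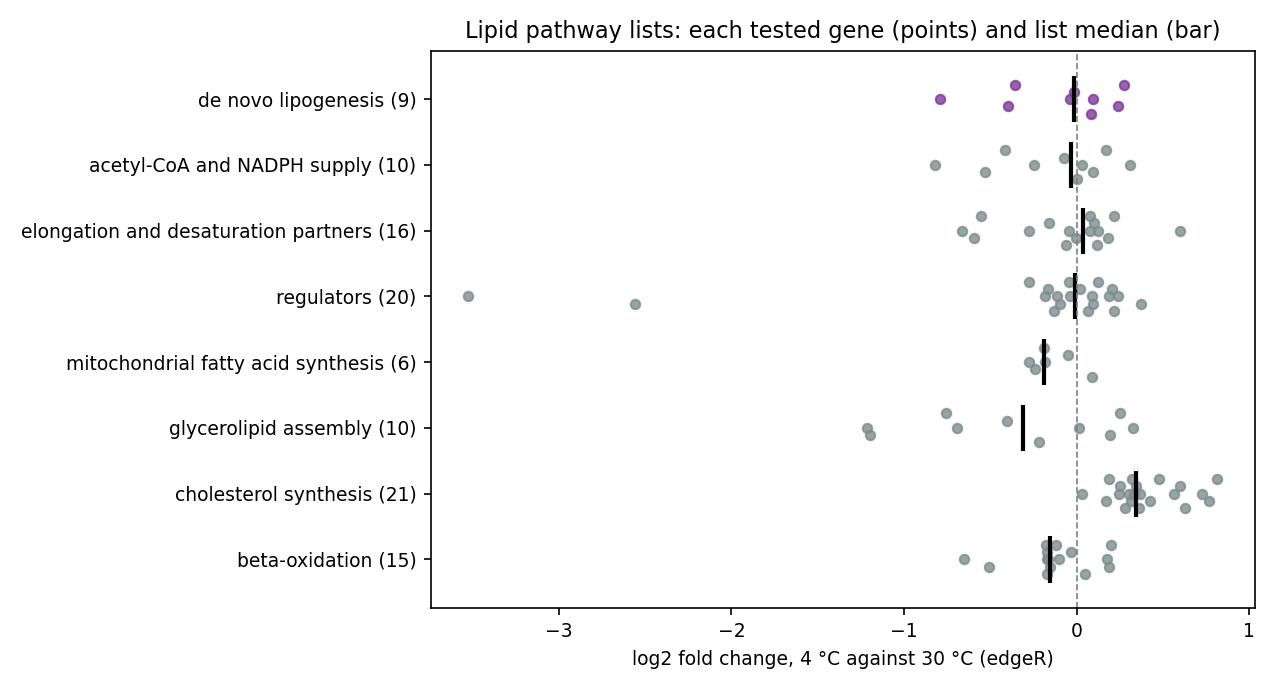
Log2 fold change of 4 °C against 30 °C from edgeR (horizontal axis) for each tested gene of 8 lipid lists (rows, with the number tested), a bar marking each list's median. The lipogenesis genes centre on -0.01 (0.084 with plain library sizes), all 21 cholesterol genes lie above 0, and no gene of any list passed the adjusted test.

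The neighbouring lipid pathways gave 0 called genes as well. Mitochondrial fatty acid synthesis, a separate route that makes the lipoate precursor, had 5 of 6 tested genes lower (median log2 fold change -0.19), which turned to 2 of 6 (median 0.016) without 4 °C replicate 1, with Oxsm, its condensing enzyme, at -0.28, Mecr, its reductase, at -0.24 and Acsf3, its malonyl-CoA synthetase, at -0.19. Glycerolipid assembly, which stores the fatty acids, had 6 of 10 lower (median -0.31), a median that was -0.098 without 30 °C replicate 1 and -0.13 without 4 °C replicate 2. Dgat1 and Dgat2, which make triglyceride, had log2 fold changes of -0.76 and -1.21, and both were highest in 30 °C replicate 1 with overlapping groups. Lpin3, a phosphatidate phosphatase, was at 6.65, 14.6 and 5.28 TMM-scaled CPM at 30 °C and 4.48 and 3.18 at 4 °C (log2 fold change -1.20, edgeR adjusted p = 0.74). Beta-oxidation, the opposing pathway, had 11 of 15 lower (median -0.16), and this became 7 of 15 lower (median 0.053) without 4 °C replicate 1, with a median of -0.051 without 30 °C replicate 1. Acsl1, which activates fatty acids, was at 90.4, 105 and 67.6 TMM-scaled CPM at 30 °C and 60.5 and 51.2 at 4 °C (log2 fold change -0.65, edgeR adjusted p = 0.71). Cpt1a, which carries fatty acids into mitochondria and is inhibited by malonyl-CoA, had a log2 fold change of -0.51 and overlapping groups, and Acadm, a dehydrogenase of the cycle, of 0.19.

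Cholesterol synthesis, which SREBP-2 drives, had a positive fitted change in 21 of 21 genes, where 50.7% of all genes had one, with a median log2 fold change of 0.35. No gene of the list passed the adjusted test. The sums of the B cell and splenic stroma lists, given above, were higher at 4 °C without overlap as well, and their part in the cholesterol genes was not tested. At an unadjusted p under 0.05 there were 4 of 21, against 2.58% of all genes in this direction, and groups were apart with 4 °C above for 9 of 21, against 12.2%. Mvd, the mevalonate decarboxylase, was at 15.8, 14.5 and 14.6 TMM-scaled CPM at 30 °C and 20.2 and 24.2 at 4 °C (log2 fold change 0.57, SE 0.19, edgeR adjusted p = 0.70). Msmo1, a sterol oxidase, was at 19.1, 24.1 and 20.7 at 30 °C and 26.9 and 45.5 at 4 °C (0.77, SE 0.26, edgeR adjusted p = 0.70). Cyp51, the lanosterol demethylase, was at 22.8, 37.6 and 42.8 at 30 °C and 53.1 and 68.0 at 4 °C (0.82, SE 0.29, edgeR adjusted p = 0.71). All 3 were highest in 4 °C replicate 2. Every scaling run kept 21 of 21 positive, and leaving out 4 °C replicate 2 gave 15 of 21 with a median of 0.21. The list was written with earlier results of these data known.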

How the data were processed

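Per the paper's methods, the authors used featureCounts and Gencode vM19 to count reads per gene. The submitters' processing notes name fastp, HISAT, RSEM and GRCm38 with no role given, so the counter is named differently by these sources, and the strand setting is not given in the sources used here. The deposited values are whole-number counts per gene symbol, without normalization. Of 54446 entries, 333 had no gene name (0.0101% to 0.0170% of the counts of a library) and were left out. A further 27 carried a date as name and stayed in the fit. For 97 symbols with several entries, the one with the highest mean count stood for the symbol. The other entries of these symbols were kept as separate entries.

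Counts were analysed in R 4.3.3 with edgeR 4.0.16 (filterByExpr, TMM, quasi-likelihood F-test with robust estimation, no covariate, Benjamini-Hochberg adjustment over 16133 genes, called under 0.05). The paper's tool, DESeq2 (1.42.0 here), was an alternative. Exact permutation tests on ratios used scipy 1.17.1. Coordinates and exon lengths come from GENCODE M21. The fit was also run on simulated counts, with changes larger than any fitted for the members. That run does not show whether changes of the members' size would be found.

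The members and lists were chosen with earlier results of these data known. Genes named were all members, the 3 with the smallest p in each other list, and, of marker lists, the most abundant gene and those at 0 in a library that serve as defining markers in the text. Alternatives were other scalings and filters, no robust estimation, removal of acinar genes, the replicate number as a block and each library left out. Leaving out 30 °C replicate 3 and 4 °C replicate 1 together was added after seeing the data. One listed gene, Hsd17b8, matched no entry, and the low-count genes Elovl3, Elovl4, Scd3, Olah and Cpt1b were not tested.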

Additional observations from a re-analysis of the deposited data

How the results depend on the processing

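The number of lipogenesis genes called was 0 under every alternative, the median of their log2 fold changes moved between -0.13 and 0.084, and the direction of Acaca (-0.67 to -0.11), Fads2 (-0.73 to -0.13) and Elovl6 (0.19 to 0.35) was kept in all 15. Genes called over the whole table were 0 with edgeR, 113 with DESeq2, 8 with plain library sizes, 44 with the replicate number as a block and 1090 at an unadjusted p under 0.05. Plain library sizes moved the median log2 fold change of all genes from 0.01 to 0.11 and turned Fasn to 0.084 and Srebf1 to 0.084, values below that shift. Upper-quartile scaling turned them to 0.034 and 0.015. Whether the replicate numbers pair the libraries could not be decided. The correlation of deviations from the group mean was -0.25 for number 1 and 0.26 for number 2. With 2 libraries at 4 °C, their deviations mirror each other, so these values are not independent. With the replicate block, Fasn turned to 0.15 and Scd2 to -0.061. As 30 °C replicate 3 is the only library with its number, the block fits it exactly and takes it out of the comparison. Without that library and with no block, Fasn was at 0.17 and Scd2 at -0.035. The turns with the block, and the genes called with it, therefore cannot be read as an effect of pairing. Leaving out 1 library gave log2 fold changes for Fasn of -0.24 to 0.17, Acacb -1.45 to 0.056, Acly -0.14 to 0.28, Scd1 -0.10 to 0.64, Scd2 -0.25 to 0.34, Srebf1 -0.18 to 0.082, the log2 ratio difference of Acaca to Acacb -0.44 to 0.64 and the log2 ratio difference of Scd1 to Scd2 -0.38 to 0.86. Without 30 °C replicate 3 and 4 °C replicate 1, Srebf1 was at 0.051 and Acacb at -1.62. The cause of these turns was not tested. Removing the acinar genes left Acacb at -0.79 and Fads2 at -0.39. That removal left the counts of Acacb and Fads2 themselves as they are. It therefore does not test the part of the acinar content in their levels. Leaving out a library at 4 °C leaves 1 there, which is assumed to vary like the others.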
